A study of Mus musculus with 2 samples.

Results

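The genes examined here build and use caveolae, the flask-shaped pits of the endothelial surface. They are the caveolins Cav1 and Cav2, the cavins Cavin1, Cavin2 and Cavin3, the caveolar ATPase Ehd2, the diaphragm protein Plvap, the endothelial nitric oxide synthase Nos3 (eNOS) and the kinase Akt1. They were chosen by name, with earlier results of these data known, and all 9 were among the 11405 genes listed in both deposited tables. RNA was measured by poly-A sequencing in MS1, an immortalised endothelial cell line from mouse pancreatic islets. Cells of this line had been infected with a lentivirus carrying a short hairpin RNA (shRNA). In the control library the hairpin was against LacZ, a bacterial gene that mouse cells lack, and the genotype was labelled wt. In the knockdown library it was against Pspc1, a paraspeckle RNA-binding protein. There was 1 library per group, and both groups carried a lentiviral hairpin. The sources used here give neither the hairpin sequences nor the number of cultures behind each library.

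Caveolin proteins insert into the plasma membrane and oligomerise with cholesterol, and cavins form a coat over them that bends the membrane. CAV1 binds eNOS and holds it inactive, whereas AKT1 phosphorylates eNOS and activates it, so these proteins meet in the control of nitric oxide. PLVAP forms the diaphragms that span caveolae and fenestrae, and islet capillaries are fenestrated. The data are RNA levels and hold no measure of protein, phosphorylation, nitric oxide or membrane shape.

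Reads on listed genes numbered 64009912 (LacZ hairpin) and 53518762 (Pspc1 hairpin). Values are the signal as the authors deposited it, which is the read count of a gene multiplied by a constant of each library. With 1 library per group no spread between cultures could be measured, so no p-value is given and no difference has a replicate check. Where a pair of values is given, the LacZ hairpin comes first. The 95% intervals are exact conditional binomial intervals from the reads and cover counting error only. The libraries came from bulk cultures, so fewer expressing cells and less RNA per cell cannot be told apart. The targeted gene had a signal of 28.8 with the LacZ hairpin and 3.78 with the Pspc1 hairpin, a log2 ratio of -2.77 (knockdown over control, pseudocount 0.5). Of 12 endothelial markers 10 were listed, with a summed signal of 6661 and 6955, while the endothelial genes Cldn5 and Vwf were not listed. These markers went both ways. Of the 9 with a mean of at least 20, 5 log2 ratios were above 0 and 4 below, Cdh5 (-0.75) and Kdr (-0.94) were lower by over 1.5-fold, and Esam (376.5 and 566.1) was 1.504-fold higher. Markers of muscle (0 of 6) and islet endocrine cells (0 of 7) were not listed. Of fibroblast and smooth muscle markers only Pdgfra and Pdgfrb were listed, with sums of at most 2.38 per set. Epithelial markers summed to 47.7 and 152.1, made up of Krt19 (23.8 and 115.2) and Krt18 (2 of 6 listed). Of the leukocyte set only Cd68 was listed (1 of 6), with 102.7 and 123.7. Of the adipocyte set only Fabp4 was listed (1 of 4), with 22.1 and 7.84, and 1 gene does not identify a cell type. Among lymphatic markers, Lyve1, Flt4 and Pdpn (3 of 5) summed to 187.1 and 197.7. The part of these differences in the results below was not tested.

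None of the 9 genes differed by 2-fold, but they did not move as a unit. Both caveolin genes, Cavin2 and Akt1 were lower in the knockdown library by 1.53-fold to 1.82-fold, and Plvap was 1.67-fold higher. Cavin1, Nos3, Ehd2 and Cavin3 differed by 1.21-fold or less. Of the 7 genes with a mean signal of at least 50, which was the minimum for a call, 0 reached 2-fold, against 1.49% of all 3629 genes above that minimum. At 1.5-fold, 2 of the 7 were lower (Cav1 and Akt1), against a background of 3.89%. The background for a 1.5-fold higher signal was 3.39%, and Plvap was the 1 gene of the 7 in that class. Cav2 and Cavin2 lay under the minimum and were not counted. The standard deviation of the log2 ratio among the 7 genes was 0.53, beside 0.34 over all 3629 genes. Because the genes were chosen with earlier results of these data known, these counts and spreads describe them and cannot test them against the background.

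The 4 genes that were lower by at least 1.5-fold are Cav1, Cav2, Cavin2 and Akt1, and the 250 bases upstream of their gene starts are shown because these members were all lower. The sequences are from RefSeq on GRCm38.p6, in the direction of transcription, with short motif matches in capitals. For each of the 4 genes the RefSeq start used equals the gene start in the GENCODE annotation. A second RefSeq start of Cav1 and of Akt1 lies inside the gene and is not shown. Windows were found for 6 of the 9 genes, and Cavin3, Plvap and Nos3 had no entry.
Cav1, chr6:17306085-17306334, plus strand: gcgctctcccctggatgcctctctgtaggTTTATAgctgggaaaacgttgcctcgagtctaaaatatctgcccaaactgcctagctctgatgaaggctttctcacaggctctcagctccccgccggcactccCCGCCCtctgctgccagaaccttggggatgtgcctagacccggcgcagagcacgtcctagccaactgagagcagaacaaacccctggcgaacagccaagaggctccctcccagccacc
Cav2, chr6:17280935-17281184, plus strand: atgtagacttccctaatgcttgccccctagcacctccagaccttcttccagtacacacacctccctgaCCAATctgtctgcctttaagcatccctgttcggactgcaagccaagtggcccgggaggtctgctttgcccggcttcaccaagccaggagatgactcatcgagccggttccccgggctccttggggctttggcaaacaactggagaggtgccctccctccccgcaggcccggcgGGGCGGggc
Cavin2, chr1:51288876-51289125, plus strand: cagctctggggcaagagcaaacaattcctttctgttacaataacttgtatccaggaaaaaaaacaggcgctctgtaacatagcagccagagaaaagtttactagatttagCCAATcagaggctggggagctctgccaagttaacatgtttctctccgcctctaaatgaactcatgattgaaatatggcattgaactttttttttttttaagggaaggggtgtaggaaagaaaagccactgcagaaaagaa
Akt1, chr12:112674885-112675134, minus strand: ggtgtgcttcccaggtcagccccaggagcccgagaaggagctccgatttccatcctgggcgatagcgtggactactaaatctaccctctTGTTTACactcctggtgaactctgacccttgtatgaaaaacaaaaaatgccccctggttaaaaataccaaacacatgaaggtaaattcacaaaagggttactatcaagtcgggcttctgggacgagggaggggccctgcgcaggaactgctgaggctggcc

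The 4 windows did not share a motif among those searched on both strands. The GC box GGGCGG, the letters that Sp1 family factors bind, occurred in the windows of Cav1 and Cav2 and in 32.7% of all 32851 windows. The other Akt1 window, which is not shown, held 4 matches, with the last 2 overlapping. The GC box was thus at a RefSeq start of 3 of the 4 lower genes, and also in the windows of Cavin1 and Ehd2, which were not lower. That count takes any window of a gene, whereas 32.7% is a share of single windows, so the 2 are unlike measures. CCAAT occurred in Cav2 and Cavin2, likewise in Cavin1 and Ehd2, and in 33.8% of windows. TATAAA occurred in Cav1 alone of the 4, on the reverse strand more than 200 bases from the start, and in 12.4% of windows. GTAAACA, the core bound by FOXO factors, occurred in the Akt1 window on the reverse strand and in 3.17% of windows. CGGAAG, an ETS core, was in none of the 4 and in 13.6% of all windows. The Cavin2 window was AT-rich with 40.4% GC, against 59.6% for Cav1, 62.0% for Cav2 and 52.0% for the Akt1 window shown (78.4% for the other), and a median of 52.4% over all windows. A match is a description of these letters and not a measured binding site.

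The caveolins were lower together. Cav1 (ENSMUSG00000007655, mm10 chromosome 6, 17306335 to 17341452, plus strand), the structural protein without which endothelial caveolae do not form, had a signal of 796.4 with the LacZ hairpin and 455.9 with the Pspc1 hairpin. The log2 ratio was -0.80, with a counting interval of -0.83 to -0.78 from 51974 and 23142 reads. Among the 3629 genes above the minimum, 1.74% had a lower log2 ratio. Cav2 (ENSMUSG00000000058, chromosome 6, 17281185 to 17289115, plus strand), which needs CAV1 to leave the Golgi, had 40.9 with the LacZ hairpin and 22.5 with the Pspc1 hairpin. Its log2 ratio was -0.85 (-0.96 to -0.76). Both transcripts are low in GC content (42.6% for Cav1 and 37.5% for Cav2), against a median of 51.8% over genes of mean 20 or more. After a linear correction for exonic length and GC content the log2 ratios were -0.69 for Cav1 and -0.67 for Cav2. Both lay outside their counting intervals, nearer to 0. The genes are neighbours, 17.2 kb apart and read in the same direction. On levels per kilobase of merged exons, Cav1 exceeded Cav2 by 18.9-fold with the LacZ hairpin (18.2 to 19.6) and by 19.6-fold with the Pspc1 hairpin (18.5 to 20.9). The log2 change of that ratio was 0.06 with a counting interval of -0.04 to 0.16, so the difference in the Cav1 to Cav2 ratio was within counting error.

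**Figure D1:**
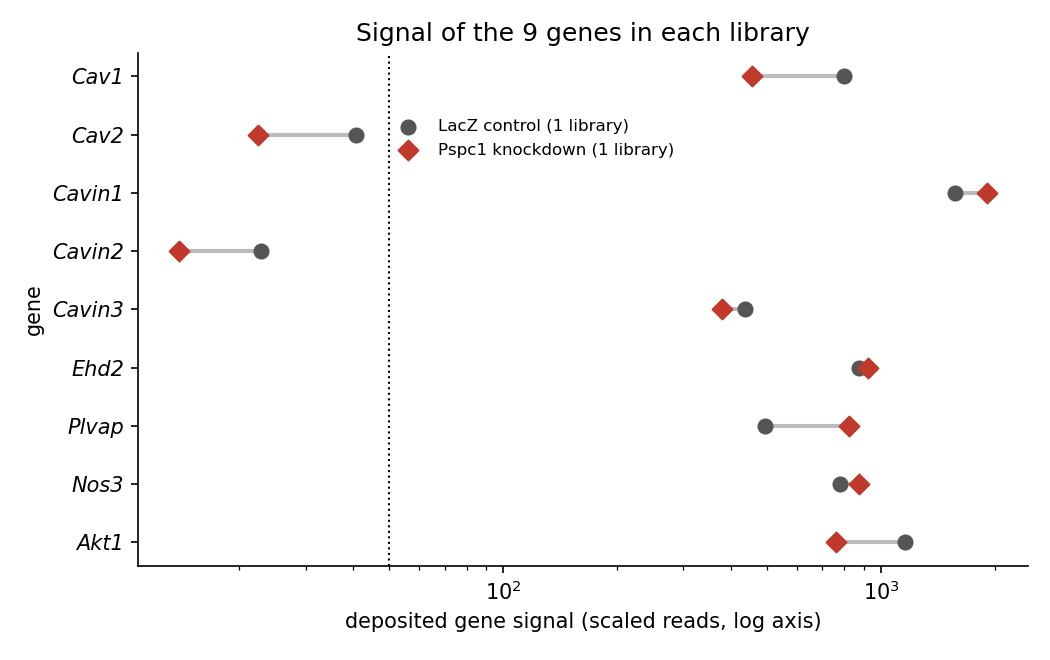
Deposited signal (horizontal, log axis) of each of the 9 genes (vertical) in the control library (grey circles) and the knockdown library (red diamonds), 1 library each. The dotted line marks a signal of 50. Cav1, Cav2, Cavin2 and Akt1 lie lower and Plvap higher in the knockdown library, while the points of Ehd2 (874.3 and 924.5) nearly coincide.

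The cavins differed in direction, with Cavin1 higher and Cavin2 and Cavin3 lower. Cavin1 (ENSMUSG00000004044, chromosome 11, 100956733 to 100970887, minus strand), the coat protein that caveolae require, had 1574 with the LacZ hairpin and 1910 with the Pspc1 hairpin. This was 1.21-fold higher, with a log2 ratio of 0.28 (0.27 to 0.29). Cavin2 (ENSMUSG00000045954, chromosome 1, 51289126 to 51302960, plus strand), which helps to bend the membrane, had 22.9 with the LacZ hairpin and 13.8 with the Pspc1 hairpin. Its log2 ratio was -0.70 (-0.86 to -0.59), from 1493 and 703 reads. Cavin3 (ENSMUSG00000037060, chromosome 7, 105480083 to 105482300, minus strand), a cavin that binds protein kinase C delta, had 436.1 and 380.5, a log2 ratio of -0.20 (-0.22 to -0.17). Reads of Cavin3 could be shared with Gm45667, an antisense gene that overlaps 374 of its 1662 exonic bases and was not listed in the tables.

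Within the coat, the proportions of the RNAs shifted toward Cavin1. Per kilobase, the share of Cavin1 among the 3 cavins was 61.9% with the LacZ hairpin and 69.5% with the Pspc1 hairpin, and that of Cavin3 was 37.0% and 29.9%. Cavin2 made up 1.06% and 0.592%. The ratio of Cav1 to Cavin1 per kilobase was 0.527 (0.522 to 0.533) with the LacZ hairpin and 0.249 (0.245 to 0.252) with the Pspc1 hairpin. That is a log2 change of -1.08 (-1.11 to -1.06), to which Cav1 contributed more than Cavin1 did.

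At the neck of the caveola and in its diaphragm the values went apart. Ehd2 (ENSMUSG00000074364, chromosome 7, 15946958 to 15967567, minus strand), the ATPase that holds caveolae at the cell surface, had 874.3 and 924.5. Its log2 ratio of 0.08 (0.06 to 0.10) was close to the median of 0.07 over all 3629 genes. Plvap (ENSMUSG00000034845, chromosome 8, 71497765 to 71511752, minus strand) had 494.7 with the LacZ hairpin and 823.9 with the Pspc1 hairpin. The log2 ratio was 0.74 (0.71 to 0.76), and 1.76% of the 3629 genes had a higher one. Plvap stood at 1.08 times Cav1 per kilobase with the LacZ hairpin and at 3.13 times with the Pspc1 hairpin, a log2 change of 1.54 (1.51 to 1.57). Plvap has a short transcript rich in G and C (1987 exonic bases, 60.6% GC), and across 5889 genes the log2 ratio had a Spearman correlation of -0.32 with exonic length and 0.28 with GC content, where genes are not independent replicates. After a linear correction for both its log2 ratio was 0.54, which is short of 1.5-fold.

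**Figure D2:**
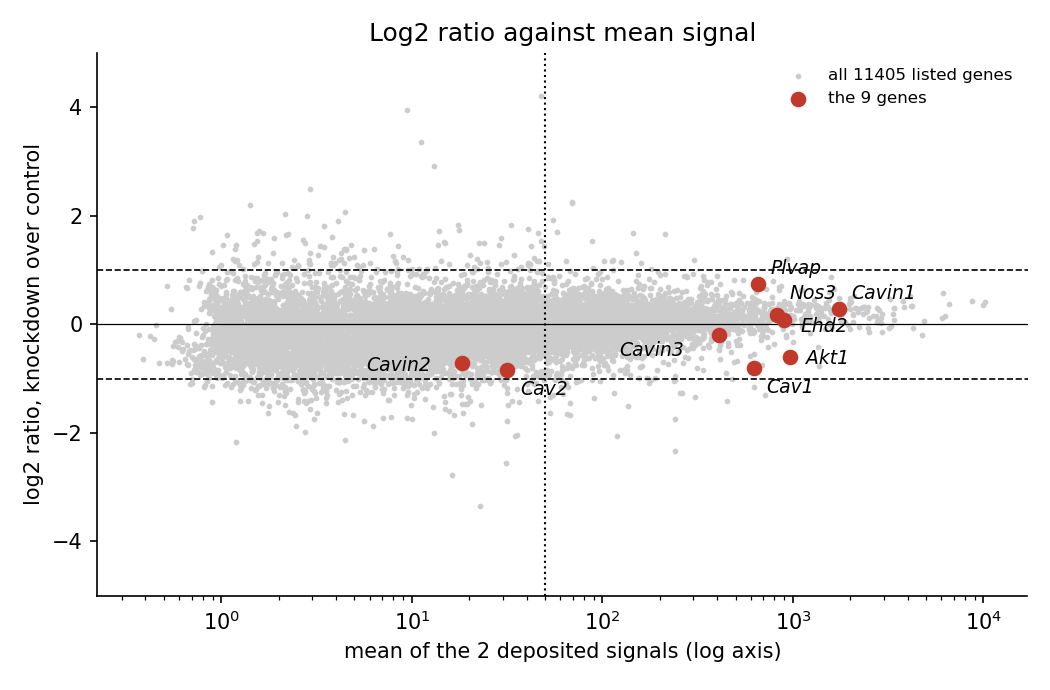
Log2 ratio of knockdown over control (vertical) against the mean of both deposited signals (horizontal, log axis) for all 11405 listed genes (grey) and the 9 genes (red, named). Dashed lines mark 2-fold and the dotted line a mean of 50, and no red point lies beyond the dashed lines.

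Of the enzyme and the kinase that acts on it, the kinase gene Akt1 differed more. Nos3 (ENSMUSG00000028978, chromosome 5, 24364810 to 24384474, plus strand) had 780.6 with the LacZ hairpin and 874.9 with the Pspc1 hairpin, a log2 ratio of 0.16 (0.15 to 0.18). This was not unusual, as 36.5% of the 3629 genes had a higher log2 ratio and their median was 0.07. After the correction for length and GC the log2 ratio of Nos3 was 0.11. Reads of Nos3 and of its antisense neighbours could not be separated without strand. Atg9b shares 294 of the 4132 exonic bases of Nos3 and had 32.0 and 19.9, and Gm15587 shares 1040 and had 3.40 and 3.13. Both were listed far below Nos3. Akt1 (ENSMUSG00000001729, chromosome 12, 112653821 to 112674884, minus strand) had 1161 with the LacZ hairpin and 760.9 with the Pspc1 hairpin. The log2 ratio was -0.61 (-0.63 to -0.59) from 75744 and 38629 reads, and 3.47% of the 3629 genes had a lower one. Akt1 lay at the edge of 1.5-fold, with a log2 ratio of -0.56 under median-of-ratios scaling and -0.57 with a trimmed mean of M values, both short of it. After the correction for length and GC it was -0.68.

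Relative to Nos3, both its inhibitor and its activating kinase had less RNA in the knockdown library. The ratio of Cav1 to Nos3 per kilobase was 1.22 (1.21 to 1.24) with the LacZ hairpin and 0.625 (0.615 to 0.635) with the Pspc1 hairpin. The ratio of Akt1 to Nos3 was 1.5 and 0.877, a log2 change of -0.77 (-0.80 to -0.75). The level of Akt1 per kilobase depends on the length taken, because 9 transcripts are annotated. With the longest transcript in place of merged exons the ratio of Akt1 to Nos3 was 2.28 and 1.34, with the same change.

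Akt1 was far above Akt2 in both libraries. Its share of the per-kilobase signal of the pair was 96.95% with the LacZ hairpin and 93.5% with the Pspc1 hairpin. Akt2, the isoform best known for insulin signalling, had signals of 63.5 and 92.7, a log2 ratio of 0.54, and its share went from 3.05% to 6.54%. The per-kilobase signal of the pair summed to 292.1 with the LacZ hairpin and 198.7 with the Pspc1 hairpin, and the sum was lower despite the higher signal of Akt2. Likewise, the sum of the caveolins was 243.5 and 139.1, while that of the cavins was 708.7 and 766.0. Among the 4 Ehd genes the shares were 40.4% and 41.1% for Ehd2, 41.0% and 38.1% for Ehd4, 18.3% and 20.6% for Ehd1 and 0.259% and 0.187% for Ehd3.

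The order of levels per kilobase changed between the libraries. In the control library it ran from Cavin1 (438.8) through Akt1 (283.2), Cavin3 (262.4), Plvap (249.0), Cav1 (231.3), Nos3 (188.9) and Ehd2 (170.8) to Cav2 (12.3) and Cavin2 (7.49). In the knockdown library it ran from Cavin1 (532.5) through Plvap (414.7), Cavin3 (229.0), Nos3 (211.7), Akt1 (185.7), Ehd2 (180.6) and Cav1 (132.4) to Cav2 (6.74) and Cavin2 (4.53). By this measure Cav1 stood at rank 243 of all 11405 genes with the LacZ hairpin and 493 with the Pspc1 hairpin, and Plvap at 222 and 155. Whether neighbours in these orders differ beyond the spread between cultures was not measurable. With the longest transcript, Akt1 (431.5 and 282.9) and Cav1 (290.0 and 166.0) stood higher, and the lowest places stayed with Cav2 and Cavin2.

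**Figure D3:**
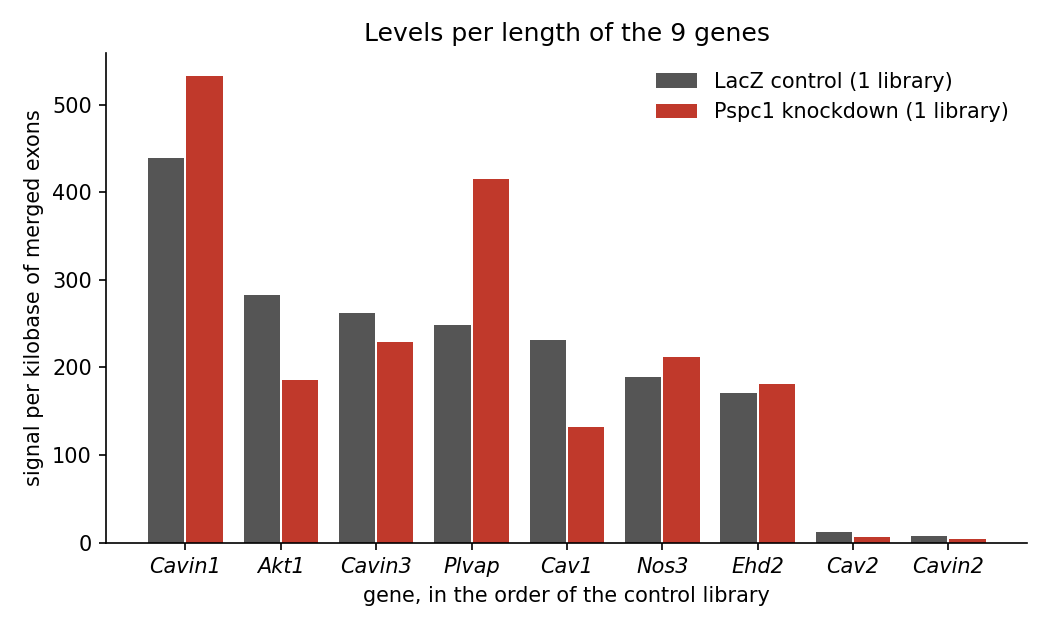
Signal per kilobase of merged exons (vertical, from 0) of the 9 genes in the order of the control library, as bars for the control (grey) and knockdown (red) libraries, 1 library each and no error bars. The bars of Akt1 and Cav1 are shorter and that of Plvap taller in the knockdown library.

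How firmly a direction stands differed between the genes. Cav1, Cav2, Cavin2, Cavin3 and Akt1 were below 0 and Cavin1, Plvap and Nos3 above 0 as reported and under all 6 alternative settings of scaling, pseudocount and bias correction. Ehd2 was at 0.08 as reported and at -0.02 when the totals were made equal. Cavin3 went from -0.20 to -0.36 with the length and GC correction. Making the totals equal moved the median of all 3629 genes from 0.07 to -0.03, and Cav1 stood at -0.91 on that scale.

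**Figure D4:**
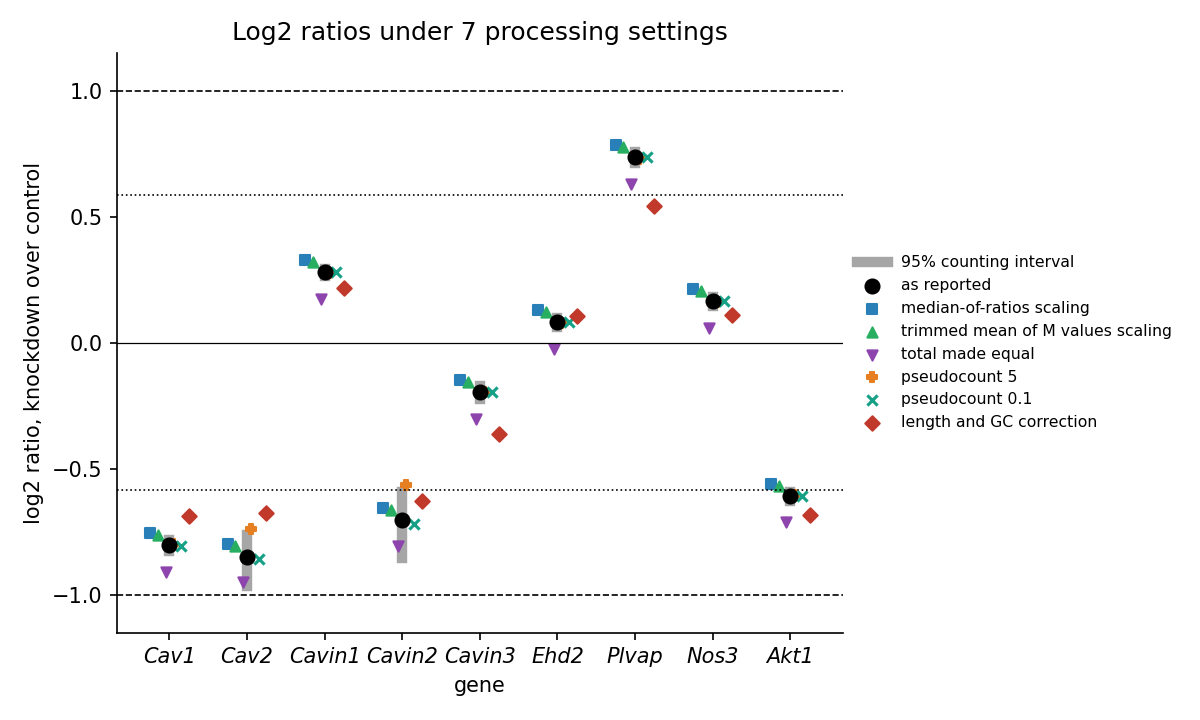
Log2 ratio of knockdown over control (vertical) of the 9 genes under the reported setting (black) and 6 alternatives (coloured marks), with the 95% counting interval as a grey bar. Dashed lines mark 2-fold and dotted lines 1.5-fold. No mark reaches 2-fold, Akt1, Cavin2 and Plvap cross the dotted lines between settings, and Ehd2 crosses 0.

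Other genes of the caveola differed less than the caveolins. In the list of further coat, neck and raft genes 15 of 18 were listed and 11 had a mean of at least 20, with 6 log2 ratios above 0. Their median was 0.18, beside 0.04 over all 5892 genes of mean 20 or more, of which 55.0% were above 0. After the length and GC correction it was 0.08, beside 0.05 over all genes. None reached 1.5-fold. The flotillins, scaffold proteins of membrane microdomains, had 80.5 and 91.9 (Flot1) and 158.5 and 201.1 (Flot2). Src, the kinase that phosphorylates CAV1, had 207.8 and 257.4, and Ehd1 had 286.9 and 335.1. The muscle forms Cav3 and Cavin4 were not listed. Clathrin-coated pit genes, the other main route of uptake, had a median of 0.11 (15 genes, 10 above 0). Among them the adaptor subunit Ap2s1 (169.1 and 240.5), the light chain Cltb (137.1 and 192.2) and Ap2a1 (138.0 and 180.5) were higher in the knockdown library, and the adaptor Dab2 (100.9 and 76.3) was lower, all short of 1.5-fold. The heavy chain Cltc, picked with its values in view, had 35.0 and 16.2, with a mean of 25.6 under the minimum. The genes of cholesterol and sphingomyelin supply had a median of -0.08 (13 genes, 6 above 0), which turned to 0.38 with the 7 genes of mean 50 or more and to 0.09 after the length and GC correction. The cholesterol carrier Npc2 (210.2 and 298.1), the sphingomyelinase Smpd1 (102.7 and 139.7) and Sptlc2, a subunit of serine palmitoyltransferase (91.2 and 118.5), were among its larger differences.

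The partners of eNOS gave a median of 0.16 (16 genes of mean 20 or more, 11 above 0), and none met the 2-fold rule. After the length and GC correction the median was 0.05, equal to that over all genes, and with equal totals it was 0.06, beside -0.07 over all genes. Ass1, which recycles citrulline toward arginine, the substrate of eNOS, had 126.9 and 199.4, a log2 ratio of 0.65. It was the only gene of the list past 1.5-fold with a mean of at least 50, and was short of it at 0.56 after the length and GC correction and at 0.55 when the totals were made equal. Gch1, the first enzyme of tetrahydrobiopterin synthesis, had 43.3 and 58.9. Ddah2 had 125.7 and 156.7, and the reductase gene Cyb5r3 491.1 and 613.8. The chaperone Hsp90ab1 differed little (2876 and 2911), while its relative Hsp90aa1 had 28.8 and 10.1, with a mean of 19.4 too low to enter. Both were named after their values were seen. Of the genes of the NO receptor and the other NO synthases only Nos2 was listed (1 of 7), with a summed signal of 2.28 and 0.118, which is too low to compare.

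The receptors upstream had a median of 0.02 (10 genes, 5 above 0), which was -0.09 with equal totals. Kdr, the VEGF receptor that signals to eNOS through Akt, had 148.9 and 77.3, a log2 ratio of -0.94. It was past 2-fold on the scale with equal totals (-1.04) and at -0.77 after the length and GC correction. The mechanosensitive channel Piezo1 had 140.5 and 104.8, Tie1 1080 and 1355, and Gna12 159.8 and 190.5. Transcription factors known to act on Nos3 had a median of -0.24 (7 genes, 3 above 0), which was 0.01 with the 5 genes of mean 50 or more. Among these Erg (119.4 and 84.96) and Elk3 (91.8 and 66.7) were lower in the knockdown library. Gata2 (72.9 and 103.1) and the flow-induced Klf2 (177.8 and 202.8) were higher, Klf2 with a log2 ratio of 0.19 that turned to -0.03 with the length and GC correction.

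In the pathway of Akt1 each list held genes on both sides of equality. The other kinases had a median of -0.24 (7 genes, 2 above 0), which was 0.15 with the 2 genes of mean 50 or more. Only Akt2 and Mapkap1 (55.6 and 46.9), a subunit of the mTORC2 complex that phosphorylates Akt, had such a mean. The brakes had a median of -0.0005 (9 genes, 4 above 0), from -0.10 with equal totals to 0.12 after the length and GC correction. The phosphatase 2A scaffold Ppp2r1a had 610.5 and 805.4, its regulatory subunit Ppp2r5a 125.2 and 97.8, the pseudokinase Trib3 182.5 and 168.8, and Cnksr3 60.7 and 67.1. The substrates had a median of 0.04 (13 genes, 7 above 0), which was -0.06 with equal totals and -0.23 with every listed member, low ones included. Cdkn1a, the cell cycle inhibitor p21, had 500.5 and 838.6, a log2 ratio of 0.74. Akt1s1 (201.3 and 282.7) and Gsk3a (78.2 and 106.4) were also higher in the knockdown library, while Mdm2 (58.6 and 46.4), the ligase of p53, was lower. Gsk3b, the relative of Gsk3a, was lower too (28.6 and 18.2). Its mean of 23.4 was under the minimum for a call, and it was named after its values were seen. Palld, an actin-binding substrate picked with its values in view, had 66.9 and 32.5, with a mean of 49.7 just under the minimum.

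**Figure D5:**
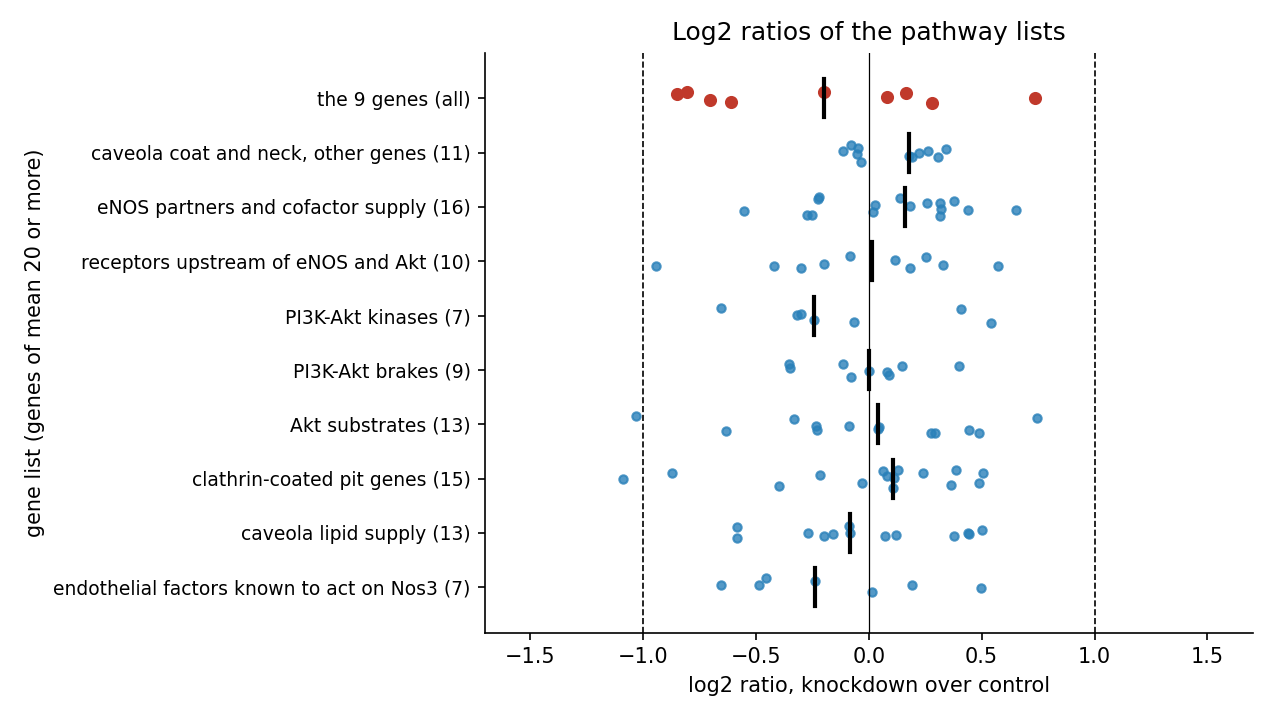
Log2 ratio of knockdown over control (horizontal) of the 9 genes (red) and of the genes of mean 20 or more in 9 pathway lists (blue, number in brackets), with each median as a black bar and 2-fold as dashed lines. Points are spread vertically at random within a row. The 9 genes range from -0.85 to 0.74, and the list medians from -0.24 to 0.18.

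Among genes of similar abundance (a mean within 1.5-fold), the log2 ratio nearest to that of Cav1 was that of Cdh5, VE-cadherin (859.4 and 511.2, log2 ratio -0.75), followed by Mcm7 (581.1 and 313.4), out of 266 genes. Both Cdh5 and Mcm7 (log2 ratio -0.89) lay outside the counting interval of Cav1 (-0.83 to -0.78). Cdh5 was also nearest to Akt1, followed by the collagen gene Col4a1 (1736 and 1017), out of 155. Their gaps from the log2 ratio of Akt1 (-0.61) were -0.14 and -0.16, so both lay below its counting interval (-0.63 to -0.59). Nearest to Plvap were Cdkn1a and Ly6a (658.2 and 1075), out of 247. For Cavin1 they were Rpl3 (1696 and 2050) and Myo1c (1792 and 2193), and for Cavin3 Hnrnpa0 (451.8 and 394.0) and Smarca4 (306.7 and 266.2). For Ehd2 they were Rtn4 (964.9 and 1021) and Ptbp1 (951.4 and 1003), and for Nos3 Csrp1 (668.0 and 748.7) and Rpl23 (854.6 and 957.6). This likeness rests on 1 ratio between 2 libraries.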

How the data were processed

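Poly-A RNA was sequenced from MS1 cells with a LacZ or a Pspc1 hairpin, 1 library each, grouped by the treatment label. Each deposited table holds a signal per gene, scaled by the authors in each library. Build mm10 and, in no stated role or order, DESeq 1.39.0, featureCounts 2.0.0, HISAT2 2.1.0 and Trimmomatic 0.39 are named, per the submitters' processing notes. How the values were scaled, which annotation was counted and which low genes were dropped was not given in the sources used here. Every value was a whole multiple of a step per library (0.0153 and 0.0197, tolerance 0.01 reads), and the whole numbers obtained by dividing by it were taken as reads. The counting intervals rest on that reading, since no raw counts were used here.

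The log2 ratio was log2((knockdown + 0.5)/(control + 0.5)) on the values as deposited, and the design provided median-of-ratios scaling for raw counts only. A call needed a mean of at least 50 and 2-fold, and 1.5-fold was an alternative. Pathway lists (10) and marker sets (9) entered with genes of mean 20 or more. Named genes were the 9 members, Pspc1, up to 4 genes per list by absolute log2 ratio among those of mean 50 or more, and the 2 nearest genes per member. Some genes under this rule are not reported here. Members and lists were chosen with earlier results of these data known. Symbols were found for 11399 of 11405 identifiers. Coordinates and lengths came from GENCODE M21 (mm10), and GC content (11399 genes) from the longest transcript. The length and GC correction was a linear fit over genes of mean 20 or more. Python 3.11.15, numpy 2.4.6, pandas 2.3.3, scipy 1.17.1 and matplotlib 3.10.9 were used. Recovery of the control step, the counting intervals, the 2-fold call and the scalings by median of ratios and trimmed mean were run on simulated reads. These reads held counting error only, and the other steps were not tested this way.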

Additional observations from a re-analysis of the deposited data

How the results depend on the processing

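The 9 genes kept their direction under all 6 alternative settings, except Ehd2, which turned with equal totals. With median-of-ratios scaling the log2 ratios were -0.75 for Cav1, 0.33 for Cavin1, -0.15 for Cavin3, 0.13 for Ehd2, 0.79 for Plvap, 0.21 for Nos3 and -0.56 for Akt1. With a trimmed mean of M values the log2 ratios were -0.76 for Cav1, 0.32 for Cavin1, -0.15 for Cavin3, 0.12 for Ehd2, 0.78 for Plvap, 0.21 for Nos3 and -0.57 for Akt1. With equal totals the log2 ratios were -0.91 for Cav1, 0.18 for Cavin1, -0.30 for Cavin3, -0.023 for Ehd2, 0.63 for Plvap, 0.060 for Nos3 and -0.71 for Akt1. After the length and GC correction the log2 ratios were -0.69 for Cav1, -0.67 for Cav2, 0.22 for Cavin1, -0.36 for Cavin3, 0.11 for Ehd2, 0.54 for Plvap, 0.11 for Nos3 and -0.68 for Akt1. With a pseudocount of 5 the log2 ratios were -0.74 for Cav2 and -0.56 for Cavin2. The cause of these moves is the setting itself, and values not given here stayed within the counting interval. None of the 9 genes reached 2-fold under any of these settings or with lower minimums on the mean. With 1.5-fold in place of 2-fold, 1 gene was higher and 2 were lower. Counting at 1.5-fold under the other settings was chosen after seeing the data. It gave 0 higher after the length and GC correction (without Plvap) and 1 lower with median-of-ratios or trimmed mean scaling (without Akt1). Over all genes 20 were higher and 34 lower at 2-fold. These counts were 50 and 71 with a minimum of 20, 149 and 306 with no minimum, and 123 and 141 at 1.5-fold, and for the scalings 23 and 24 (median of ratios), 23 and 25 (trimmed mean) and 17 and 47 (equal totals). No gene of the fixed lists reached 2-fold with a mean of at least 50, but 1 was lower with equal totals (Kdr). The share of Akt1 in the sum of Akt1 and Akt2 was 94.8% and 89.1% without division by length. Of 9 list medians, 4 changed sign with members of mean 50 or more, and at most 2 did under any other setting. No paired analysis was possible because each group holds 1 library, and no library could be left out. Depth limits Cav2 and Cavin2 most, with 1141 and 703 reads in the knockdown library.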

Other observations

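Of the 5 nearest listed genes that flank Cav1 and Cav2 on chromosome 6, 4 had a log2 ratio below 0 (Tfec -0.36, Met -0.43, Capza2 -0.95 and St7 -0.21) and Tes was at 0.29. The median log2 ratio over all 11405 listed genes was also below 0, at -0.05. Tfec, Met and St7 each had a mean under 20. Whether this region differed from the background was not tested. Tes, a focal adhesion gene on the side of Cav2, had 98.4 with the LacZ hairpin and 120.2 with the Pspc1 hairpin, and on the other side Capza2, an actin capping subunit 294.8 kb from Cav1, had 61.7 and 31.6. Between Capza2 and Cav1, the receptor gene Met had only 7.74 and 5.59. At the Akt1 locus the nearest listed genes went apart. Siva1, 4.67 kb away with a product known to promote apoptosis, had 110.9 and 71.6, a log2 ratio of -0.63 beside -0.61 for Akt1. Zbtb42, 3.94 kb away on the other side, had 13.0 and 18.2. At the loci of Cavin1 and Plvap the neighbours also went both ways. Beside Cavin1, Stat3 at 17.2 kb had 78.2 and 113.6, while Naglu, 99.1 kb away on the other side, had 83.9 and 58.8. Around Plvap, the interferon-induced gene Bst2 at 22.5 kb had 491.8 and 568.8. Ccdc194, closer on the same side at 8.37 kb, had 9.79 and 5.32, and Ano8 at 11.8 kb had 19.4 and 19.1. These neighbours were named after their values were seen.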
